A study of Mus musculus with 12 samples.

Results

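The genes described here code for subunits of receptors that are ion channels opened by acetylcholine, serotonin, GABA, glycine or glutamate, and for the metabotropic glutamate receptors. They were taken by gene symbol from either of the deposited tables, with the symbol stems Chrn, Gabr, Glr, Gria, Grik, Grin, Grid, Grm and Htr3, and this gave 49 of the 17915 named genes. There were 11 nicotinic acetylcholine receptor genes, 2 genes of the 5-HT3 serotonin receptor, 13 GABA-A receptor genes and 1 glycine receptor gene. The glutamate receptor genes were 4 of the AMPA, 5 of the kainate, 5 of the NMDA, 3 of the delta and 5 of the metabotropic family. The symbol rule also took in the gene of delphilin, which is a scaffold protein and not a receptor.

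RNA had been sequenced from cultures of adult mouse dorsal root ganglion (DRG) neurons on the C57B6 background, split into the neurites that grew through the 1 µm pores of a cell culture insert and the soma that stayed above. The groups were GAR+/- neurites (het neurites), GAR+/+ neurites (WT neurites), GAR+/- soma (het soma) and GAR+/+ soma (WT soma), with 3 libraries each. GAR names a domain rich in glycine and arginine in nucleolin, an RNA-binding protein, and the series concerned RNA localization in axons that lack normal nucleolin. Each culture came from the pooled ganglia of 1 adult mouse and was grown for 3 days.

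Ligand-gated receptors are assembled from several subunits around a central pore, and the subunits present set which transmitter opens the channel, which ion passes and how fast the channel closes. In sensory neurons, GABA-A receptors on the central terminals depolarize the fibre and dampen transmitter release, while kainate, NMDA and nicotinic receptors and the 5-HT3 receptor are known on cell bodies and terminals of subsets of these neurons. Metabotropic glutamate receptors signal through G proteins. Receptor mRNAs are largely translated near the cell body, and a few of them have been described in dendrites and axons.

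Of the 49 genes, 45 were listed in both the neurite table and the soma table. Chrnb3, Gabrr3 and the delphilin gene were listed for soma alone and Grin2b for neurites alone. A further 2, Grik1 and Grin3b, were too low to be tested on the transcripts that both tables hold, so 43 genes entered the comparisons. Levels are given as CPM, the counts of a gene scaled to the size of the library after TMM correction for composition. Library totals ran from 14965973 to 32434916 counts, and a count of 0 allows a level of up to 0.0905 to 0.21 CPM, with counting error alone considered. Differences are log2 fold changes with their standard errors (SE) from edgeR's quasi-likelihood test on all 15990 genes tested, the adjusted p is the Benjamini-Hochberg value over those genes, and the threshold is an adjusted p under 0.05.

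The tables list transcripts, and counts were summed per gene over the transcripts that both tables hold. For 5 of the 49 genes no transcript annotated as protein coding was listed. Gabra2 was counted on 1 transcript annotated for nonsense-mediated decay, Gria3 on transcripts with a retained intron, and Grin1 on processed transcripts. Grik2 is among the 5 because the transcript identifiers listed for it are not in GENCODE M21, so their type is not known here. The sources used here do not say how reads shared by several transcripts were counted, so levels of different genes are set side by side only for the 6 genes in both tables with a single annotated transcript. Nor do they say whether counting used strand, so reads of overlapping genes on opposite strands cannot be told apart.

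Per kilobase of transcript, those 6 genes kept 1 order in all 4 groups. Grik3, a kainate receptor subunit, stood at 16.3, 26.2, 13.7 and 18.8 CPM per kb in het neurites, WT neurites, het soma and WT soma. The 5-HT3 subunit gene Htr3b followed at 3.74, 3.62, 6.34 and 5.54 CPM per kb, and the nicotinic subunit gene Chrna6 at 2.14, 2.06, 2.62 and 3.21 CPM per kb. Chrnb4, a nicotinic beta subunit, had 0.569, 0.432, 0.941 and 0.797 CPM per kb, and the muscle-type nicotinic gene Chrna1 had 0.358, 0.418, 0.470 and 0.462 CPM per kb. Grm3, a metabotropic receptor, was lowest with group means of 0.114 to 0.199 CPM per kb. Chrna1 and Chrnb4 were not separated in WT neurites, where their values of 0.418 and 0.432 CPM per kb differed by less than the SD of Chrnb4, 0.158 CPM per kb (n = 3).

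The labels call the cultures neurons, and all 20 genes of a neuron marker list, among them the sensory neuron genes Isl1, Pou4f1 and Prph, were in both tables. Their summed level ran from 16597 to 20969 CPM in het neurites, 13588 to 18044 CPM in WT neurites, 19772 to 24102 CPM in het soma and 17995 to 20766 CPM in WT soma. The 15 satellite glia markers in both tables summed to 1762 to 2041 CPM in het neurites, 2356 to 2416 CPM in WT neurites, 1643 to 1847 CPM in het soma and 1894 to 2165 CPM in WT soma. The 15 Schwann cell markers in both tables, of 18 listed, summed to 1303 to 1636 CPM in het neurites, 1910 to 2052 CPM in WT neurites, 1608 to 1807 CPM in het soma and 1854 to 1979 CPM in WT soma. Proliferation genes (12 of 12) summed to 460 to 819 CPM in het neurites, 914 to 1591 CPM in WT neurites, 355 to 486 CPM in het soma and 759 to 1033 CPM in WT soma. Of 9 nucleus-retained long RNAs, 7 were in both tables. They summed to 4860 to 10156.5 CPM in het neurites and 8287 to 9230 CPM in het soma. In WT cultures they summed to 6286 to 10196 CPM in neurites and 8131 to 10714 CPM in soma. RNAs of these lists were thus counted in the neurite libraries, so levels in neurites here are not levels in axons alone. Of 10 central nervous system markers, 5 were in both tables and summed to 40.2 to 72.6 CPM in het neurites, 40.0 to 95.003 CPM in WT neurites, 68.3 to 99.8 CPM in het soma and 64.4 to 83.2 CPM in WT soma. Olig1 was listed for soma alone, and Mog, Olig2, Neurod6 and Gad1 in neither table. Of 12 skeletal muscle markers, 5 were in both tables and summed to 6.18 to 6.72 CPM in het neurites, 7.39 to 10.2 CPM in WT neurites, 6.28 to 6.91 CPM in het soma and 6.35 to 8.23 CPM in WT soma. Actc1 was listed for soma alone, and Myod1, Myog, Ckm, Tnnt3, Tnni2 and Myh3 in neither table. Nucleolin mRNA (Ncl) stood at 380 ± 46.9 CPM in het neurites, 400 ± 72.1 CPM in WT neurites, 266 ± 21.1 CPM in het soma and 231 ± 12.1 CPM in WT soma (mean ± SD, n = 3), with an adjusted p of 0.794 for het against WT in neurites and 0.697 in soma. The tables do not show which domain an Ncl transcript codes for.

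The comparison of neurites with soma asked which receptor mRNAs differ between the compartments. Most receptor genes had a lower level in neurites than in soma, with a negative log2 fold change for 37 of the 43 in het cultures and 33 of 43 in WT cultures. The median over the 43 genes was -0.44 in het cultures, against -0.005 over all genes tested, and -0.41 in WT cultures, against 0.01 over all genes. Past the threshold were Chrna7, lower in neurites of both genotypes, and Htr3a, lower in WT neurites. That is 1 of 43 genes in het cultures, where 0.638% of all genes passed and 0.0938% passed as lower, and 2 of 43 in WT cultures, where 3.1% passed and 0.688% passed as lower.

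At an unadjusted p under 0.05, 17 of 43 (39.5%) were lower in het neurites, against 6.75% of all genes, and 16 of 43 (37.2%) in WT neurites, against 8.26% of all genes. All 3 neurite libraries lay below all 3 soma libraries for 15 of 43 (34.9%) in het cultures, against 10.6% of all genes, and for 15 of 43 in WT cultures, against 9.96% of all genes. In WT cultures the replicate numbers were taken to pair neurites with soma, from correlations in these data, since the labels do not say so. With the number as a block 15 of 43 genes passed, 14 lower and 1 higher, where 9.31% of all genes passed. In het cultures the numbers were not taken as pairs. With the block, 9 of 43 genes passed there, all lower, where 4.2% of all genes passed. Among them were Chrna7, Chrnb2, Gabra2, Gabrg1, Gria2, Grik4, Htr3a and Htr3b.

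Of the 20 neuron markers, 18 had a negative value in het neurites (median -0.23) and 20 in WT neurites (median -0.33). In edgeR's test 0 passed in het (7 at an unadjusted p under 0.05, 0 by DESeq2) and 2 in WT (10 and 6). With the replicate block, 8 of the 20 passed in WT, where 9.31% of all genes passed. In edgeR's test 0.638% of all genes passed in het and 3.1% in WT. At an unadjusted p under 0.05 these shares were 14.39% and 19.64%, and by DESeq2 3.05% and 6.93%. Satellite glia markers had a median of 0.44 in het and 0.54 in WT cultures, and Schwann cell markers 0.22 and 0.42. In these bulk samples, fewer cells of a type and less RNA per cell cannot be told apart, and the part of the cell mix in the receptor differences was not tested.

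**Figure D1:**
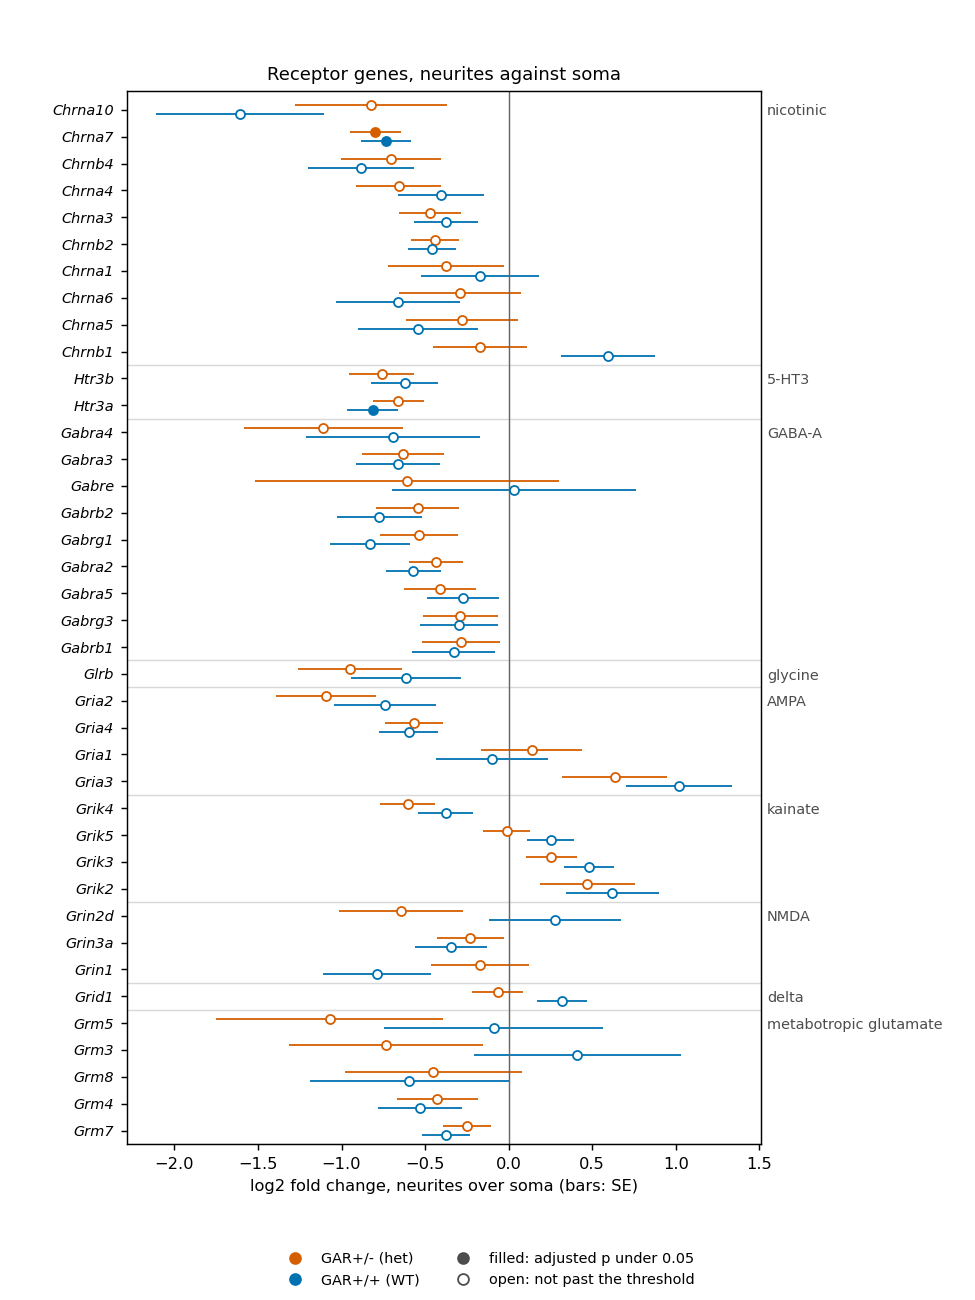
Log2 fold change of 39 receptor genes in neurites over soma (x axis), in GAR+/- (orange) and GAR+/+ (blue) cultures, with SE bars and 3 libraries per group, grouped by receptor family (rows). Points left of 0 are lower in neurites: 35 of the 39 in GAR+/- and 30 in GAR+/+, with Gria3, Grik2 and Grik3 on the right in both.

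Among the nicotinic receptor genes, Chrna7 codes for the alpha7 subunit, which forms calcium-permeable channels made of that subunit alone. The gene spans 63098692 to 63212569 of chromosome 7 (GRCm38, minus strand). Its level was 43.4, 63.5 and 50.3 CPM in het neurites, against 86.9, 89.3 and 97.3 CPM in het soma. In WT cultures it was 59.7, 54.3 and 49.8 CPM in neurites, against 112, 81.2 and 78.5 CPM in soma. Every neurite library lay below every soma library, and the WT soma library with 112 CPM was the highest of the 12. The log2 fold change was -0.80 ± 0.15 in het (adjusted p = 0.0343) and -0.73 ± 0.15 in WT (adjusted p = 0.0196), a fall of 1.74-fold and 1.66-fold in edgeR's test. The het call was lost without any 1 of its 6 libraries other than het neurites 2 (adjusted p 0.0892 to 0.168). The WT call was lost without WT neurites 3 (adjusted p = 0.0632) or WT soma 1 (adjusted p = 0.0858), or with only its 6 libraries fitted (adjusted p = 0.0701).

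Chrnb2, the beta2 subunit that pairs with alpha subunits in neuronal receptors, had 159.7, 213 and 142 CPM in het neurites, against 214, 243 and 241 CPM in het soma. It had 139, 175 and 129 CPM in WT neurites, against 202, 219 and 188 CPM in WT soma. Neurites and soma did not overlap in either genotype, but the log2 fold changes of -0.44 ± 0.14 and -0.46 ± 0.14 did not pass (adjusted p = 0.180 in het and 0.0950 in WT). Chrnb2 passed with the replicate block in WT (adjusted p = 0.0124) and in het. The gene overlaps Adar on the opposite strand.

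Chrna3, the alpha3 subunit of ganglionic receptors, had 16.8 ± 3.31 CPM in het neurites and 23.4 ± 5.80 CPM in het soma, with 14.6 ± 2.78 CPM in WT neurites and 18.9 ± 1.95 CPM in WT soma, and did not pass (adjusted p = 0.262 in het and 0.290 in WT). Chrna6 had 6.22 ± 0.558 CPM in het neurites, 7.61 ± 1.26 CPM in het soma, 5.98 ± 2.52 CPM in WT neurites and 9.32 ± 5.61 CPM in WT soma. Chrnb1, the beta subunit of the muscle-type receptor, was the 1 nicotinic gene with a positive value in WT cultures, with 4.30 ± 1.35 CPM in WT neurites and 2.81 ± 0.662 CPM in WT soma, a log2 fold change of 0.59, against -0.17 in het cultures. Chrna1, Chrna4, Chrna5, Chrna10 and Chrnb4 all averaged under 4 CPM in every group, had negative log2 fold changes in both genotypes and did not pass. With the replicate block Chrna6, Chrna10 and Chrnb4 passed as lower in WT neurites (adjusted p = 0.0498, 0.0433 and 0.0279).

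The 5-HT3 receptor is a serotonin-gated cation channel. Htr3a, the subunit that can form the channel alone, had 78.7, 115 and 110.2 CPM in het neurites, against 145, 175 and 162 CPM in het soma. In WT cultures it had 75.9, 100.3 and 80.4 CPM in neurites, against 175, 145 and 131 CPM in soma. No neurite library reached the lowest soma library. The log2 fold change of -0.81 ± 0.15 passed in WT (adjusted p = 0.0137, 1.76-fold lower), and that of -0.66 ± 0.15 in het missed the threshold in edgeR's test (adjusted p = 0.0648). Htr3a passed as lower in het neurites by DESeq2 and with the replicate block. The WT call was lost without WT neurites 1 (adjusted p = 0.0632) or WT soma 1 (adjusted p = 0.0712), or with only its 6 libraries fitted (adjusted p = 0.0531).

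Htr3b, which joins Htr3a in a receptor of larger conductance, had 8.55, 9.29 and 9.20 CPM in het neurites, against 15.0, 16.4 and 14.4 CPM in het soma. In WT cultures it had 12.4, 6.05 and 7.74 CPM in neurites, against 15.3, 12.8 and 11.9 CPM in soma, where neurites 1 overlapped the soma range. Its log2 fold changes were -0.76 ± 0.20 in het and -0.62 ± 0.20 in WT (adjusted p = 0.0976 and 0.105). It passed with the replicate block in WT (adjusted p = 0.0131) and in het, and by DESeq2 in both. Htr3a (48899213 to 48911099) and Htr3b (48935008 to 48964990) lie close together on the minus strand of chromosome 9.

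**Figure D2:**
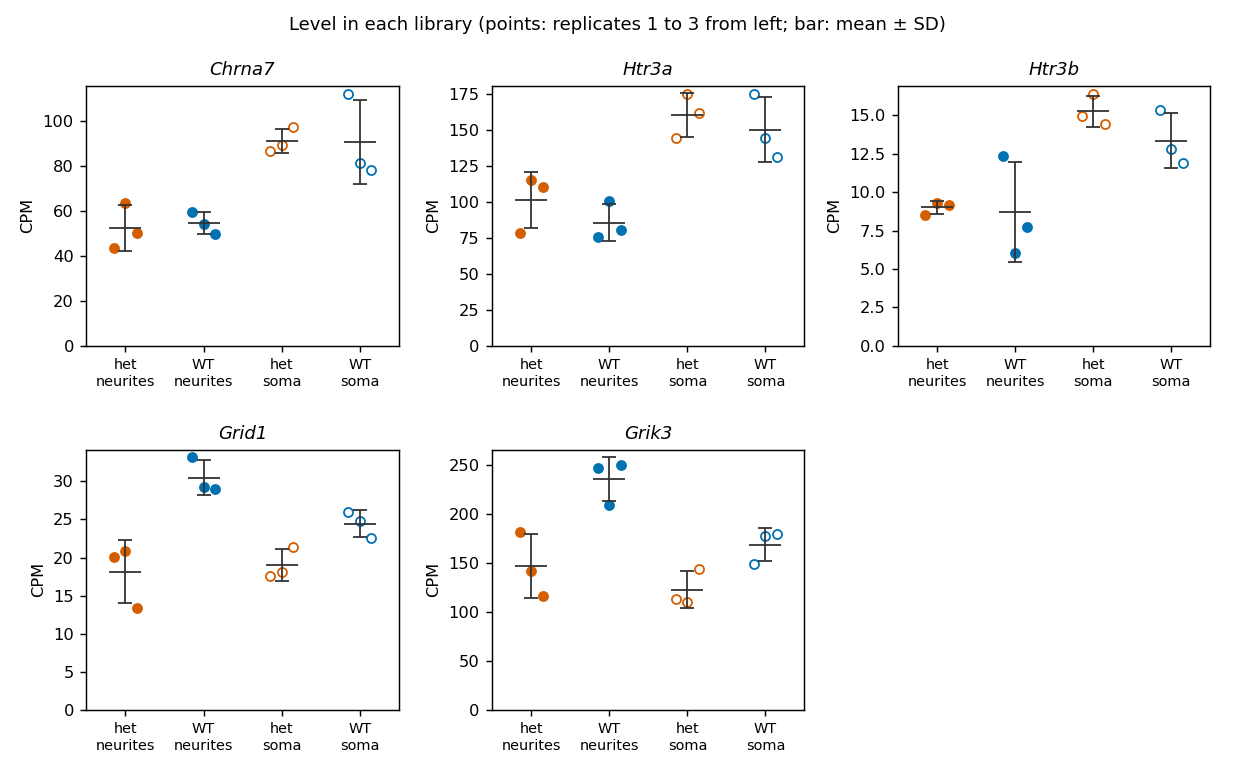
Level in CPM (y axis, from 0) of 5 receptor genes in each library of het neurites, WT neurites, het soma and WT soma (x axis), with replicates 1 to 3 from left to right and the mean ± SD (n = 3). Chrna7 and Htr3a lay lower in neurites than in soma of the same genotype, and Grid1 and Grik3 stood lower in het neurites than in WT neurites with no overlap.

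Of the 12 tested GABA-A receptor genes, which code for chloride channels, 11 had a negative log2 fold change in het cultures and 11 in WT cultures, and none passed the threshold in either by edgeR's test. At an unadjusted p under 0.05, 6 of the 12 were lower in het neurites, against 6.75% of all genes, and 5 of the 12 in WT neurites, against 8.26%. DESeq2 called none of them in het, where it called 3.05% of all genes, and 4 in WT, where it called 6.93%, among them Gabra2, Gabrb2 and Gabrg1. Gabrb2, a beta subunit of the channel that was chosen after its values were seen, had 5.52, 9.17 and 4.66 CPM in het neurites, against 9.14, 10.7 and 8.48 CPM in het soma, with replicate 2 of the neurites inside the soma range. It had 5.53, 6.66 and 3.66 CPM in WT neurites, against 10.2, 8.98 and 7.52 CPM in WT soma, with no overlap. Its log2 fold changes were -0.55 ± 0.25 in het and -0.77 ± 0.26 in WT (adjusted p = 0.329 and 0.113).

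Gabra2, counted on the transcript annotated for decay, had 79.2, 92.6 and 52.0 CPM in het neurites, against 107, 99.1 and 97.1 CPM in het soma. In WT cultures it had 60.4, 69.9 and 54.0 CPM in neurites, against 94.8, 93.3 and 85.2 CPM in soma. The groups did not overlap in either genotype, with log2 fold changes of -0.44 ± 0.16 in het and -0.57 ± 0.16 in WT (adjusted p = 0.230 and 0.0734). Gabrg1, a gamma subunit, had 23.1 ± 7.54 CPM in het neurites and 33.6 ± 6.26 CPM in het soma, with 18.1 ± 3.73 CPM in WT neurites and 32.0 ± 6.79 CPM in WT soma (log2 fold change in WT -0.83 ± 0.24, adjusted p = 0.0802). Gabra5, an alpha subunit of receptors outside synapses, had 8.18, 9.55 and 6.60 CPM in het neurites, against 12.1, 10.4 and 9.86 CPM in het soma, with no overlap. In WT cultures it had 11.3, 8.61 and 7.63 CPM in neurites, against 14.3, 11.1 and 7.70 CPM in soma, with overlap. With the replicate block Gabra2, Gabra3, Gabrb2 and Gabrg1 passed as lower in WT neurites (adjusted p 0.000444 to 0.0490). Gabra2 and Gabrg1 also passed as lower in het neurites with the block.

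Gabrg1, Gabra2, Gabra4 and Gabrb1 lie on chromosome 5 between 70751047 and 72149037, with log2 fold changes in WT of -0.83, -0.57, -0.69 and -0.33. Gabra4 and Gabrb1 overlap head to head by 196 bases. In WT cultures the 1 GABA-A gene with a positive value was Gabre, which averaged under 0.5 CPM in every group.

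Glrb, the beta subunit that anchors glycine receptors, had 1.27 ± 0.413 CPM in het neurites and 2.50 ± 0.327 CPM in het soma. It had 1.30 ± 0.491 CPM in WT neurites and 1.99 ± 0.534 CPM in WT soma. The log2 fold changes were -0.95 ± 0.31 in het and -0.61 ± 0.33 in WT (adjusted p = 0.188 and 0.315). By gene symbol, no alpha subunit gene of the glycine receptor was listed for neurites or soma.

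The AMPA receptor genes, which code for the fast glutamate-gated channels, had values of both signs. Gria4 had 5.95 ± 0.922 CPM in het neurites and 8.84 ± 0.248 CPM in het soma, with 5.77 ± 0.909 CPM in WT neurites and 8.69 ± 1.62 CPM in WT soma. Gria2, whose subunit makes the channel impermeable to calcium after RNA editing, had 0.958 ± 0.247 CPM in het neurites and 2.06 ± 0.202 CPM in het soma, with 1.09 ± 0.404 CPM in WT neurites and 1.88 ± 0.307 CPM in WT soma. In both genes neurites lay below soma without overlap in either genotype, with adjusted p-values for Gria4 and Gria2 of 0.159 and 0.115 in het and of 0.0817 and 0.193 in WT. Gria4 passed in WT with the replicate block (adjusted p = 0.0422), and Gria2 passed in het with it. Gria1 had log2 fold changes of 0.14 in het and -0.10 in WT.

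Gria3 had the opposite sign. Its intron-retaining transcripts had 4.51, 2.84 and 3.59 CPM in het neurites, against 2.59, 1.71 and 2.70 CPM in het soma, with no overlap. In WT cultures they had 8.05, 3.30 and 4.59 CPM in neurites, against 3.35, 2.52 and 1.91 CPM in soma, where the lowest neurite library fell just under the highest soma library. The log2 fold changes were 0.63 ± 0.32 in het and 1.02 ± 0.31 in WT (adjusted p = 0.387 and 0.0924). Gria3 was, with the replicate block, the 1 receptor gene that passed as higher in WT neurites (0.99 ± 0.23, adjusted p = 0.0100). The 7 nuclear RNAs tested had medians of -0.40 in het, where 0 passed, and -0.63 in WT, where 1 passed. The part of nuclear RNA in the Gria3 values was not tested.

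The kainate receptor genes had values of both signs, and none passed between neurites and soma in edgeR's test. DESeq2 called Grik4 in het and Grik3 in WT cultures, where it called 3.05% and 6.93% of all genes. At an unadjusted p under 0.05 there were 1 of 4 in het (Grik4) and 3 of 4 in WT (Grik2, Grik3 and Grik4). Over all genes the shares at that p were 14.39% and 19.64%. Grik4 also passed in het with the replicate block. Grik2 and Grik3, which form the low-affinity core of the receptor, had positive log2 fold changes of 0.47 ± 0.28 and 0.26 ± 0.15 in het and of 0.62 ± 0.28 and 0.48 ± 0.15 in WT (adjusted p in WT = 0.234 and 0.0976). Grik4, a high-affinity partner subunit, had negative ones of -0.61 ± 0.16 in het and -0.38 ± 0.17 in WT (adjusted p = 0.110 and 0.222). Its level was 6.16, 6.79 and 5.73 CPM in het neurites, against 10.3, 8.27 and 9.90 CPM in het soma, with no overlap. Grik5, the other partner subunit, had log2 fold changes of -0.01 ± 0.14 in het and 0.25 ± 0.14 in WT, with 48.2 ± 8.34 CPM in het neurites, 48.7 ± 7.11 CPM in het soma, 50.6 ± 4.85 CPM in WT neurites and 42.6 ± 4.27 CPM in WT soma. Whether Grik3 and Grik4 differ in their compartment change was not tested.

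Of the NMDA receptor genes, Grin1, the subunit that every NMDA receptor needs, had 1.58 ± 0.413 CPM in het neurites and 1.78 ± 0.328 CPM in het soma, with 0.818 ± 0.304 CPM in WT neurites and 1.46 ± 0.112 CPM in WT soma (WT log2 fold change -0.79 ± 0.32, adjusted p = 0.191). Grin3a, a glycine-binding subunit, had log2 fold changes of -0.23 ± 0.20 in het and -0.34 ± 0.21 in WT, and Grin2d, a subunit of slow NMDA channels, had -0.65 ± 0.37 and 0.28 ± 0.39. The delta receptor gene Grid1 had -0.07 ± 0.15 in het and 0.32 ± 0.15 in WT and did not pass (adjusted p in WT = 0.261). The metabotropic genes had negative values in 5 of 5 cases in het and 4 of 5 in WT. Grm7, a presynaptic group III receptor that lowers transmitter release, had 29.0 ± 7.08 CPM in het neurites and 34.6 ± 1.07 CPM in het soma, with 21.6, 23.2 and 25.2 CPM in WT neurites, against 29.9, 32.5 and 28.6 CPM in WT soma (WT log2 fold change -0.37 ± 0.15, adjusted p = 0.169). Grm4, of the same group, had 4.40 ± 1.28, 5.90 ± 0.966, 3.63 ± 0.505 and 5.19 ± 1.34 CPM in the same order. Grm3, Grm5 and Grm8 averaged under 1 CPM in every group.

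The comparison of het with WT cultures in neurites asked which receptor mRNAs depend on the nucleolin genotype there. Grid1 and Grik3 were lower in het neurites and passed the threshold, and no receptor gene passed as higher. These were 2 of 43 genes (4.65%), where 3.27% of all genes passed and 2.78% passed as lower, so the number of calls was near the background. The count over all genes, 523, rested on single libraries too: it was 0 without het neurites 2, het neurites 3 or WT neurites 3, 50 without WT neurites 1, 1110 without het neurites 1 and 1767 without WT neurites 2, and 251 to 416 without any 1 soma library. Of the 43, 26 had a positive log2 fold change, and the median was 0.08, against -0.01 over all genes.

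Grid1 codes for GluD1, a delta receptor that binds glycine and D-serine and links synapses through secreted cerebellins. The gene spans 34820108 to 35583379 of chromosome 14 (plus strand). Its level was 20.1, 20.9 and 13.4 CPM in het neurites, against 33.2, 29.3 and 29.0 CPM in WT neurites, so each het library lay below each WT library. The log2 fold change was -0.75 ± 0.15 (adjusted p = 0.0231, 1.68-fold lower). In soma it had 17.5, 18.1 and 21.4 CPM in het, against 26.0, 24.7 and 22.5 CPM in WT, again with no overlap, and the log2 fold change of -0.36 ± 0.15 did not pass (adjusted p = 0.454).

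Grik3 codes for GluK3, a kainate receptor subunit with low affinity for glutamate. The gene spans 125490700 to 125714173 of chromosome 4 (plus strand) and has 1 annotated transcript, of 8973 bases. Its level was 181, 142 and 116 CPM in het neurites, against 246, 209 and 249 CPM in WT neurites, with no overlap. The log2 fold change was -0.68 ± 0.15 (adjusted p = 0.0288, 1.61-fold lower). In soma it had 114, 110.2 and 144 CPM in het, against 149, 177 and 179 CPM in WT, with no overlap, and a log2 fold change of -0.46 ± 0.15 (adjusted p = 0.285). With the replicate block, whose numbers were taken as pairs in soma, the adjusted p in soma was 0.0534.

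Both neurite calls were lost without any 1 of 4 libraries, and with only the 6 neurite libraries fitted (adjusted p = 0.117 for each). Without het neurites 2, het neurites 3, WT neurites 1 and WT neurites 3, the adjusted p of Grid1 was 0.101, 0.117, 0.0862 and 0.0694. That of Grik3 was 0.132, 0.138, 0.105 and 0.0946. In the authors' deposited table for neurites, the log2 fold changes of the same transcripts were -0.75 for Grid1 and -0.68 for Grik3, with false discovery rates of 0.00102 for each. In the authors' deposited table for soma, Grik3 had -0.46 with a false discovery rate of 0.000408 and Grid1 had -0.36 with 0.0725.

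Markers of other cell types differed between the same libraries. Over all genes 51.45% had a negative value in het against WT neurites, and 3.27% passed in edgeR's test. At an unadjusted p under 0.05 the share was 20.91%, and by DESeq2 it was 7.5%. In neurites, het over WT, 12 of 15 satellite glia markers had a negative value (median -0.82, 5 past the threshold), as had 14 of 15 Schwann cell markers (median -0.64, 4 past it) and 12 of 12 proliferation genes (median -1.10, 6 past it). Negative values were also found for 10 of 12 fibroblast markers (median -0.68, 1 past it) and 11 of 12 endothelial and mural markers (median -0.71, 3 past it). Neuron markers had a positive value in 19 of 20 cases (median 0.28, 3 past it), and macrophage markers in 7 of 9 (median 0.25, 0 past it in edgeR's test, 0 at an unadjusted p under 0.05 and 0 by DESeq2). Muscle markers had a negative value in 3 of 5 cases (median -0.05, 1 past it), as had central nervous system markers (median -0.0006, 0 past it in edgeR's test, 2 at an unadjusted p under 0.05 and 2 by DESeq2). The summed levels are given above, where the het and WT neurite libraries did not overlap for satellite glia, Schwann cell and proliferation genes. They overlapped for fibroblast markers (1301 to 2450 CPM in het neurites, against 1600.1 to 4533 CPM in WT neurites), endothelial and mural markers (966 to 1581 CPM, against 1238 to 3142 CPM) and macrophage markers (129.6 to 326 CPM, against 98.7 to 202 CPM). The part of the cell mix in the Grid1 and Grik3 differences was not tested.

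**Figure D3:**
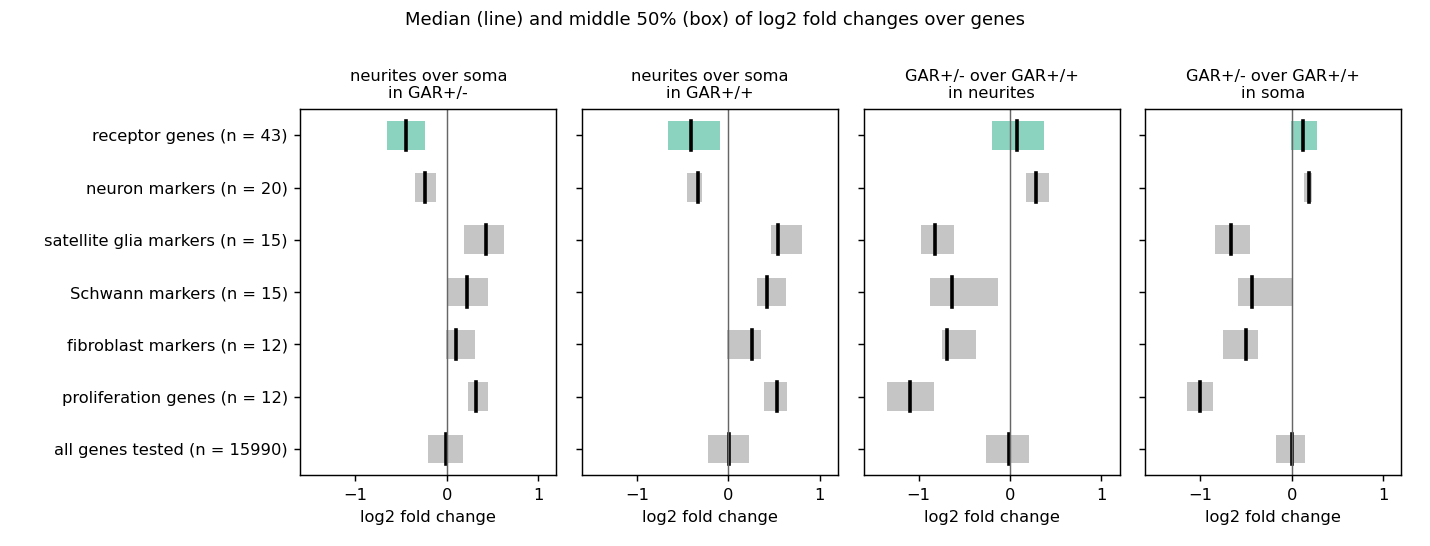
Median (line) and middle 50% of genes (box) of the log2 fold change (x axis) for the 43 receptor genes and for marker lists and all genes tested (rows), in 4 comparisons (panels). In neurites over soma the medians were -0.44 for the receptor genes and -0.23 for the neuron markers in GAR+/-, and -0.41 and -0.33 in GAR+/+ cultures.

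Nucleolin binds RNA hairpins whose loop holds a short consensus, and 4 hexamers of that consensus were searched on the sense strand of the transcripts (the first was TCCCGA, the second was TCCCGG, the third was GCCCGA, and the last was GCCCGG), to show what such letters look like in the genes past the threshold. The capitals mark the hexamer, overlaps were counted, and positions are from GENCODE M21 on GRCm38.
Grik3, 3′ UTR, chr4:125709874-125709903, plus strand: gaagccacgctgGCCCGGgagaggagagca
Grik3, 3′ UTR, chr4:125713043-125713072, plus strand: ttgaagagaacaGCCCGAgggcactgccga
Grik3, coding exon, chr4:125639338-125639367, plus strand: agattcgccagcTCCCGAttgactcggatg
Grid1, 3′ UTR, chr14:35582147-35582176, plus strand: gatggtaaatttGCCCGGaagtcctgtttc
Htr3a, coding exon, chr9:48908721-48908750, minus strand: agggccacccagGCCCGAgataccacccag
Htr3a had this 1 match, Chrna7 had no match in its listed transcript, and Grid1 had 5 in all.

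Matches of this kind are frequent. Of 69 receptor transcripts in both tables, 52 (75.4%) held at least 1, against 63.5% of 31117 transcripts of all genes, and the receptor transcripts were longer (median 3799 and 1916 bases). Per kilobase the receptor transcripts held 0.502 matches and all transcripts 0.685. In 3′ UTRs, 18 of 52 receptor transcripts (34.6%) held a match, against 26.7% of all, with median 3′ UTR lengths of 1818 and 978 bases. A match describes letters, and no binding was measured.

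Grik2 had a log2 fold change of -0.51 ± 0.28 in neurites and -0.36 ± 0.28 in soma, and neither passed.

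**Figure D4:**
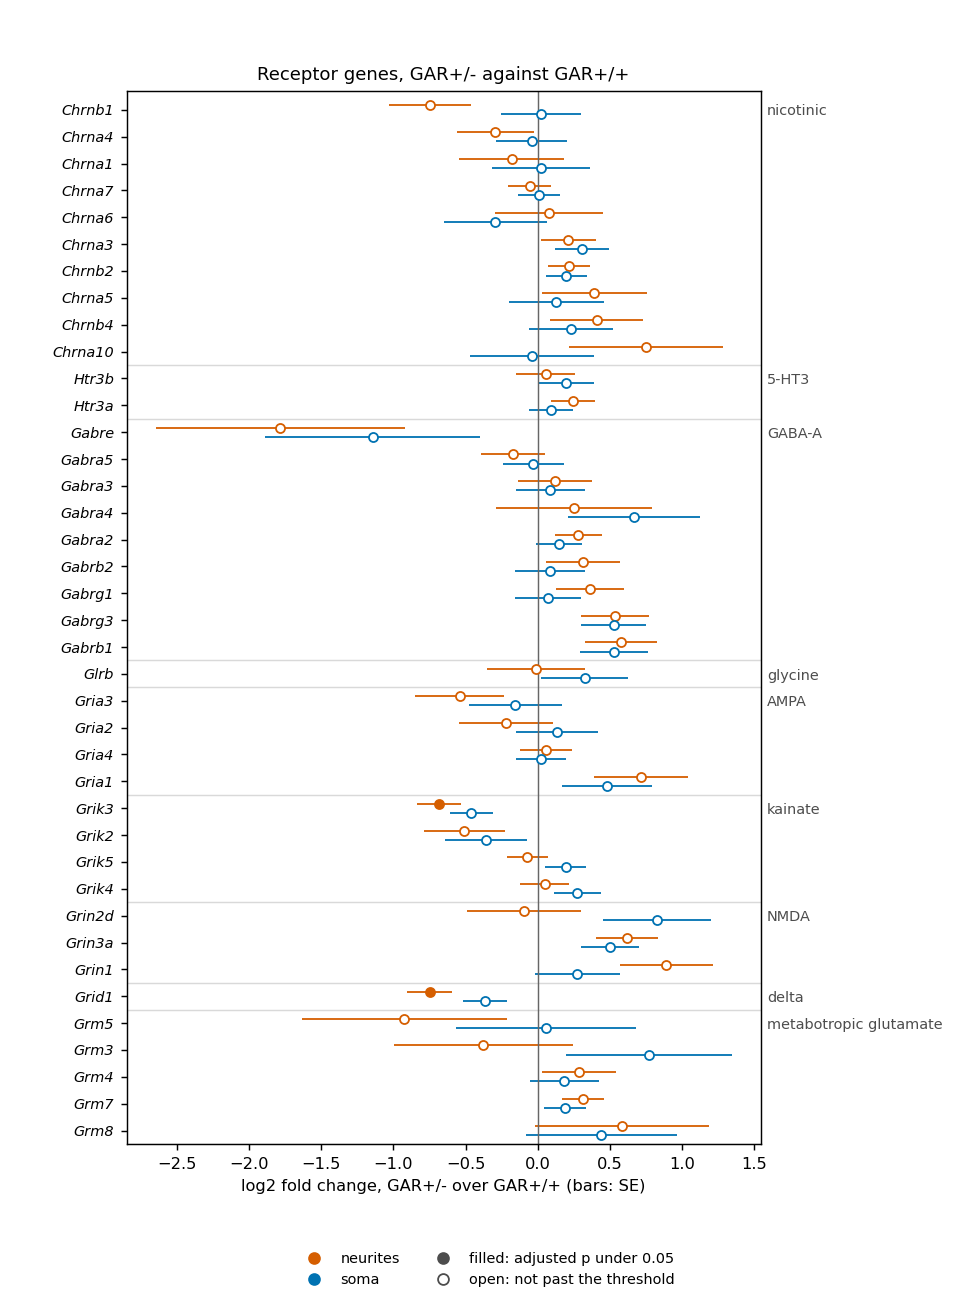
Log2 fold change of 39 receptor genes in GAR+/- over GAR+/+ cultures (x axis), in neurites (orange) and soma (blue), with SE bars and 3 libraries per group, grouped by receptor family (rows). Grid1 and Grik3 in neurites are the only filled points (adjusted p under 0.05), and both lie left of 0.

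Other genes did not pass. Grin3a had 4.09, 4.18 and 3.46 CPM in het neurites, against 2.73, 2.89 and 2.10 CPM in WT neurites, with no overlap (log2 fold change 0.62 ± 0.21, adjusted p = 0.115). Grin1 had 2.02, 1.53 and 1.20 CPM in het neurites, against 0.490, 0.874 and 1.09 CPM in WT neurites, with no overlap (0.89 ± 0.32, adjusted p = 0.134). Of the 12 GABA-A genes, 10 had a positive value in neurites (median 0.30), as had 9 of 12 in soma (median 0.09). Chrnb1 had -0.74 ± 0.28 (adjusted p = 0.151). At an unadjusted p under 0.05, 6 of 43 (14.0%) were higher in het neurites, against 7.72% of all genes, and 4 of 43 (9.3%) lower, against 13.2%. The libraries did not overlap for 2 higher (4.65%) and 3 lower (6.98%) receptor genes, against 7.53% and 10.8% of all genes. The shares without overlap were thus below the background, while the share higher at an unadjusted p under 0.05 was above it.

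In soma, no receptor gene passed the threshold between het and WT, and neither did any other gene (0.0%) in edgeR's test. With the replicate block 3.25% of all genes passed and 0 of the 43, and DESeq2 called 315 genes and 0 of the 43. At an unadjusted p under 0.05 there were 4 of 43 (9.3%) higher, against 2.11% of all genes, and 2 of 43 (4.65%) lower, against 7.05%. The higher ones were Grin3a, Gabrg3, Gabrb1 and Grin2d, and the lower ones Grik3 and Grid1. Het soma libraries lay above all WT soma libraries for 8 of 43 (18.6%), against 8.86% of all genes, and below them for 4 of 43 (9.3%), against 11.9%.

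Grin3a had 4.59, 3.73 and 5.46 CPM in het soma, against 2.85, 3.60 and 3.25 CPM in WT soma (log2 fold change 0.50 ± 0.20, adjusted p = 0.422). Gabrg3, a gamma subunit, had 8.03, 9.20 and 9.49 CPM in het soma, against 5.46, 6.27 and 6.81 CPM in WT soma (0.53 ± 0.22, adjusted p = 0.471). Gabrb1 had 4.19, 4.39 and 5.32 CPM in het soma, against 2.69, 3.91 and 2.98 CPM in WT soma (0.53 ± 0.23, adjusted p = 0.502). Grin2d had 1.99, 1.75 and 3.07 CPM in het soma, against 0.884, 1.59 and 1.34 CPM in WT soma (0.83 ± 0.37, adjusted p = 0.516). In all 4 genes het and WT soma did not overlap. Grin3a overlaps Ppp3r2 on the same strand, and Grin2d overlaps Kdelr1 on the opposite one. In the authors' deposited table for soma, 1 transcript each of Gabrg3 (log2 fold change 0.50) and Grin3a (0.92) had false discovery rates of 0.0326 and 0.0280. The other Gabrg3 transcript had 0.91 with a rate of 0.150. The other transcripts of Grin3a had 0.53 and 0.02 with rates of 0.372 and 0.989. Neuron markers had a positive value in het soma in 20 of 20 cases (median 0.19), and their part in these values was not tested.

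The test of whether the neurite change differed between the genotypes called no receptor gene and no other gene (0.0%) in edgeR's test, nor did DESeq2 or limma voom. At an unadjusted p under 0.05 it gave 0 of 43, against 1.26% of all genes (202). The smallest p among the receptor genes were 0.0728 for Chrnb1 (difference of log2 fold changes, het minus WT, -0.77 ± 0.40), 0.0941 for Grid1 (-0.38 ± 0.22) and 0.109 for Grin2d (-0.92 ± 0.54), each with an adjusted p of 1.00. Grin1 (0.62 ± 0.44), Grm3 (-1.14 ± 0.85) and Grik5 (-0.26 ± 0.20) followed with unadjusted p of 0.178, 0.197 and 0.203. The 95% interval of the difference was -0.48 to 0.35 for Chrna7, -0.27 to 0.57 for Htr3a, -0.81 to 0.04 for Grid1 and -0.64 to 0.19 for Grik3. The Htr3a call in WT and its miss in het therefore do not show a difference between genotypes.

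The genes listed in 1 table alone could be compared between genotypes only there. Grin2b, an NMDA subunit, had 0.316, 0.151 and 0.0838 CPM in het neurites, against 0.685, 0.328 and 0.539 CPM in WT neurites, which is 41 counts over 6 libraries. It failed the count filter and was fitted without it (log2 fold change -1.51 ± 0.72, adjusted p = 0.378). In soma, Chrnb3 had 0.311 ± 0.0323 CPM in het and 0.147 ± 0.0759 CPM in WT. Gabrr3, a rho subunit, had 0.139 ± 0.0547 CPM in het soma and 0.259 ± 0.177 CPM in WT soma, and the delphilin gene had 0.413 ± 0.163 and 0.324 ± 0.0619 CPM. The adjusted p-values without the filter were 0.458, 0.630 and 0.790. Grik1 averaged 0.161 to 0.544 CPM and Grin3b 0.197 to 0.376 CPM over the 4 groups, close to the level that a count of 0 allows. With its transcript listed for soma alone added, Grik1 passed the count filter in soma. Het over WT there gave a log2 fold change of 0.49 ± 0.48 (adjusted p = 0.693, edgeR's test).

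Other genes of these pathways were followed in 4 lists. Of 27 tested auxiliary and assembly proteins, 21 had a negative log2 fold change in het neurites against het soma and 23 in WT. Over all genes 50.78% had one in het and 49.33% in WT. In WT 3.1% of all genes passed, 0.688% as lower. Frrs1l, which assembles AMPA receptors in the endoplasmic reticulum, fell in WT neurites (19.4 ± 2.32 CPM, against 29.3 ± 2.53 CPM in WT soma; log2 fold change -0.60 ± 0.14, adjusted p = 0.0359). Cacng4, an AMPA receptor partner of the TARP family, rose there (18.7 ± 1.77 CPM, against 10.6 ± 2.65 CPM; 0.82 ± 0.21, adjusted p = 0.0469). In het neurites Cacng4 was lower than in WT neurites (8.47 ± 2.34 CPM, against 18.7 ± 1.77 CPM; -1.15 ± 0.21, adjusted p = 0.0212). In soma it had 5.81 ± 1.10 CPM in het, against 10.6 ± 2.65 CPM in WT, and did not pass (-0.87 ± 0.22, adjusted p = 0.145). Gsg1l, another AMPA receptor partner, was higher in het than in WT neurites (4.14 ± 0.174 CPM, against 2.42 ± 0.269 CPM; 0.76 ± 0.19, adjusted p = 0.0403). It had 4.92 ± 0.475 CPM in het soma, against 3.10 ± 0.401 CPM in WT soma. Between het and WT neurites 3.27% of all genes passed, and none did with only the 6 neurite libraries fitted.

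Of 37 tested scaffold genes, none passed in any comparison by edgeR's test, and medians ran from -0.02 to 0.07. At an unadjusted p under 0.05 there were 8 in neurites against soma in het, 8 in WT, 7 in het against WT neurites and 5 in soma, and DESeq2 called 4, 3, 3 and 1. Over all genes the shares in the same order were 14.39%, 19.64%, 20.91% and 9.16% at that p. By DESeq2 they were 3.05%, 6.93%, 7.5% and 1.97%. In neurites against soma the smallest p were those of Nptx2, a pentraxin that clusters AMPA receptors (adjusted p = 0.0829 in het and 0.0536 in WT). Of 12 tested metabotropic receptors for GABA, acetylcholine and serotonin, 11 had a negative value in het neurites and 12 in WT neurites, and 3 fell in WT. They were Htr1f (-0.93 ± 0.20, adjusted p = 0.0237), the GABA-B subunit gene Gabbr1 (-0.68 ± 0.17, adjusted p = 0.0417) and the muscarinic gene Chrm2 (-0.64 ± 0.16, adjusted p = 0.0435). Over all genes 50.78% had a negative value in het and 49.33% in WT, where 0.688% passed as lower. Htr1f, the serotonin receptor targeted by a class of migraine drugs, was higher in het than in WT neurites (8.78 ± 1.34 CPM, against 4.70 ± 1.37 CPM; 0.88 ± 0.20, adjusted p = 0.0308). In soma it had 11.4 ± 0.767 CPM in het, against 9.06 ± 1.15 CPM in WT.

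Of 26 tested genes that make, move or break down the transmitters, 1 passed in neurites against soma. In that comparison 3.1% of all genes passed in WT and 0.638% in het. Bche, which codes for butyrylcholinesterase, fell in WT neurites (8.34 ± 0.698 CPM, against 13.7 ± 1.93 CPM in WT soma; -0.71 ± 0.14, adjusted p = 0.0155). Between genotypes 3 passed in neurites, where 3.27% of all genes passed. Tph2, a serotonin synthesis enzyme, was higher in het neurites (4.66 ± 1.05 CPM, against 2.45 ± 0.308 CPM; 0.93 ± 0.21, adjusted p = 0.0304). In soma it had 5.38 ± 0.777 CPM in het, against 3.49 ± 0.0973 CPM in WT, and did not pass (0.62 ± 0.20, adjusted p = 0.254). The GABA transporter gene Slc6a11 was lower in het neurites (1.28 ± 0.302 CPM, against 3.42 ± 0.960 CPM; -1.41 ± 0.33, adjusted p = 0.0364). So was the amino acid transporter gene Slc1a5 (0.783 ± 0.253 CPM, against 2.02 ± 0.562 CPM; -1.34 ± 0.32, adjusted p = 0.0353). In soma Slc6a11 had 1.39 ± 0.537 CPM in het, against 1.74 ± 0.452 CPM in WT. Slc1a5 had 1.08 ± 0.101 CPM in het soma, against 1.52 ± 0.262 CPM in WT soma.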

How the data were processed

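RNA was sequenced from neurites and soma of DRG cultures, 3 libraries in each of 4 groups. Ribosomal RNA was depleted and stranded libraries were made, per the labels' protocols. CASAVA 1.8.2 and edgeR were used with mm10 (GRCm38), per the submitters' processing notes, while the aligner and the counter were not named in any source at hand. The authors deposited raw counts per Ensembl transcript in 1 table per compartment, and each listed transcript reached 5 counts in 3 or more libraries of its table. Per the file headers, the authors also gave log2 fold changes of het over WT with p-values and false discovery rates. The other 24 per-sample columns were not used. Transcripts without a gene name held 0.57% to 0.69% of the counts.

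Counts were summed per gene over the 31420 named transcripts in both tables (16617 genes), passed through filterByExpr and TMM scaling, and tested with edgeR 4.0.16 in R 4.3.3 (robust quasi-likelihood, 1 mean per group, spread shared by 12 libraries, 5 contrasts, 2-sided). The SE is the log2 fold change divided by the square root of F. DESeq2 1.42.0, limma voom 3.58.1 and the other alternatives are described in the closing section. Replicate numbers were taken to pair samples where every same-numbered pair deviated together with a correlation over 0.1. In WT neurites and soma these were 0.278, 0.341 and 0.230, and in het and WT soma 0.222, 0.273 and 0.159, so the blocked fit is given beside those comparisons. Its calls between het neurites and het soma are also named, although those numbers missed this rule. P-values of the main fit rest on the spread within groups, estimated over all 12 libraries together, so those of a contrast also draw on the other groups. That fit treated the neurite and soma libraries as independent.

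Counts cover every gene that the symbol rule took in, and 4 of these genes are not reported here by name or value. Values are given for members past the threshold, up to 4 of the highest in each family, up to 6 with the smallest p in each contrast, and up to 3 genes of a pathway list. The members and lists were chosen with earlier results of these data known. Positions come from GENCODE M21, which matched 48 of the 49 genes by transcript and Grik2 by name.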

Additional observations from a re-analysis of the deposited data

How the results depend on the processing

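The directions of Chrna7, Htr3a, Grid1 and Grik3 stayed the same under all 20 alternatives run for each call, and DESeq2's size factors as scaling, no filter on low counts, all named transcripts of each table, each transcript on its own and limma voom kept the same numbers of calls. For neurites against soma in WT, 2 receptor genes passed, against 6 with library totals as the only scaling, 11 with DESeq2, 15 with the replicate block, 0 with only the 6 libraries compared, and 0 to 8 when 1 library was left out (0 without WT soma 1, 1 without WT neurites 3, 8 without WT neurites 2). In het it was 1, against 2 with only the 6 libraries, 4 with DESeq2, 9 with the replicate block, and 0 to 3 when 1 library was left out. For het against WT in neurites 2 passed, against 0 with only the 6 libraries, 3 with DESeq2, 3 with the replicate block, and 0 to 4 when 1 library was left out (4 without het neurites 1 or WT neurites 2, 0 without het neurites 2, het neurites 3, WT neurites 1 or WT neurites 3). The cause was not tested. In het neurites and soma and in het and WT neurites, the replicate numbers were not taken as pairs, since the third pair had correlations of 0.05 and -0.037. In het neurites and soma the other same-numbered correlations were 0.205 and 0.256, and the highest between unlike numbers was 0.008. The labels do not say whether the numbers pair samples, so the blocked counts in het are given as well. Over all genes tested the calls numbered 495 in neurites against soma in WT (40 with only the 6 libraries, 1108 with DESeq2, 1489 with the block), 102 in het (488 and 671 with DESeq2 and the block), 523 in het against WT neurites (0 with only the 6 libraries, 292 with library totals, 1200 and 1617 with DESeq2 and the block) and 0 in soma (388 with only the 6 libraries, 315 and 520 with DESeq2 and the block). With 1 library left out they ran from 93 to 1081 and 0 to 191 between compartments in WT and het, and from 0 to 1767 and 0 to 64 between genotypes in neurites and soma. Fits without the count filter of genes listed in 1 table were added after seeing the data. Fewer than 100 counts lay behind Gabre, Grik1 (on the transcript that both tables hold), Grin2b, Grin3b and the 3 genes listed for soma alone, where only large differences could be detected.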
